A study of Mus musculus with 6 samples.

Results

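The mitochondrial genome of the mouse is represented in the deposited table by 16 of 30315 genes, chosen here by 1 rule, a symbol that begins with mt-. They comprise 13 protein-coding genes (mRNA), 2 ribosomal RNA genes (rRNA) and 1 transfer RNA gene (tRNA), mt-Tp. The table places all 16 on the mitochondrial chromosome at the positions of the GENCODE M21 annotation (mouse build GRCm38), which lists 37 genes there, and its other 21 tRNA genes were not analysed here. Expression was measured by RNA sequencing of mouse primary renal tubular epithelial cells (TECs) of C57BL/6 origin, 3 libraries per group. TECs of both groups were transfected with an siRNA, directed against Sox9 (siSox9) or the negative control siNC, and 12 h later underwent hypoxia/reoxygenation (H/R), an in vitro model of renal ischemia and reperfusion. H/R consisted of 6 h at 1.0% O2 in medium free of glucose, then 18 h in complete medium under normal conditions, so no group without H/R and no untransfected group entered the comparison. The age and sex of the source mice are not given in the sources used here, nor is it stated that the replicates came from separate cultures or animals, so p-values measure only the spread between these libraries.

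Mitochondrial DNA is a small circle present in many copies per cell, transcribed along both strands into long precursors that are cut into individual RNAs, largely at the tRNAs that lie between the other genes. Its mRNAs encode core subunits of respiratory complexes I, III and IV and of ATP synthase, its rRNAs form the mitochondrial ribosome, and its tRNAs serve mitochondrial translation. All other respiratory subunits, the mitochondrial RNA polymerase and the factors that process mitochondrial RNA are encoded in the nucleus. Renal tubular epithelium, above all the proximal tubule, is rich in mitochondria, which power its transport of solutes. Fragments of mitochondrial DNA have also been inserted into nuclear chromosomes during evolution, and the annotation lists such copies as pseudogenes.

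Several of the mitochondrial genes had a nuclear copy so alike that short reads could fit both, and their sequences are shown first because the levels of the genes divided along the same line. A segment of 4653 bases of the mitochondrial chromosome, chrM:6390-11042, lay opposite 7 annotated copies in the same order on the minus strand of chromosome 1, chr1:24611535-24616188. Of the copies, 5 were identical to their gene over the aligned length, namely Gm28661 (mt-Co2), Gm10925 (mt-Atp6), Gm28437 (mt-Co3), Gm10222 (mt-Nd4l) and Gm28439 (the first 876 bases of mt-Nd4). The copy of mt-Co2 illustrates this in a 60-base stretch shown beside the more distant copy Gm13341 on chromosome 2, with capitals at the bases where mt-Co2 and Gm13341 differ.
mt-Co2, chrM:7457-7516, plus strand: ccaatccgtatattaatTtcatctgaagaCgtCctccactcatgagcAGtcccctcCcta
Gm28661, chr1:24615062-24615121, minus strand: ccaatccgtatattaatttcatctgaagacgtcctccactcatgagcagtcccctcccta
Gm13341, chr2:22587471-22587530, minus strand: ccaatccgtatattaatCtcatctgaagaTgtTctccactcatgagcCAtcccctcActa
Counting from 1 at the 5′ end of mt-Co2, the differences from Gm13341 were T462C, C474T, C477T, A492C, G493A and C501A. Over the same stretch mt-Co2 and Gm28661 had no difference.

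The first 60 bases of mt-Nd3 contain its single difference from its chromosome 1 copy over the 345 bases aligned, T3C, in capitals.
mt-Nd3, chrM:9459-9518, plus strand: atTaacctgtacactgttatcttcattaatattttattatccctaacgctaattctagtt
Gm28438, chr1:24613060-24613119, minus strand: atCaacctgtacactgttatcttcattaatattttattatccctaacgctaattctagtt
Away from the chromosome 1 segment, copies were less alike. The closest copy of mt-Cytb, Gm11410 on chromosome 4, carried 81 mismatches (92.9% identity), and 8 of them, C837T, C855T, T858C, C862A, T870G, C873T, T880C and C885G, fell within 60 bases, in capitals.
mt-Cytb, chrM:14970-15029, plus strand: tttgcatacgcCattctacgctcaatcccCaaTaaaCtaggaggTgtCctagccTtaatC
Gm11410, chr4:80004814-80004873, plus strand: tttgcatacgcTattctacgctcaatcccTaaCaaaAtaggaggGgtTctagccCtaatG
The only tRNA, mt-Tp, carries proline and is read from the opposite strand to most of the mRNAs. It is 67 bases long and is printed whole.
mt-Tp, chrM:15356-15422, minus strand: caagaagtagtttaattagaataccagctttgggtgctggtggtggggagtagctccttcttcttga
Stretches of 100 bases found letter for letter in an annotated nuclear transcript made up 97.6% to 99.9% of mt-Co2, mt-Atp6, mt-Co3, mt-Nd3 and mt-Nd4l. The share was 60.8% for mt-Nd4, 30.8% for mt-Co1 and 3.19% for mt-Nd2, and no such stretch was found in mt-Rnr1, mt-Rnr2, mt-Nd1, mt-Nd5, mt-Nd6, mt-Cytb or mt-Atp8, while mt-Tp is too short to hold one. The last 43 bases of mt-Atp8 (chrM:7766-7969), shared with mt-Atp6, lay opposite the identical copy Gm10925, whereas the rest of the gene lay opposite a stretch with no annotated transcript, where identity was not read. The strand setting, read length and treatment of reads that fit several places are not given in the sources used here, so reads of these genes and of their copies cannot be told apart.

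The libraries held between 23893197 and 25725743 reads, recovered from the FPKM values (fragments per kilobase of exon, scaled to sequencing depth) with annotated gene lengths. Sox9 stood at 8.93, 8.61 and 9.07 FPKM with siSox9 and at 25.7, 26.5 and 25.6 FPKM with siNC, a log2 fold change of -1.45 (SE 0.03, limma adjusted p = 7.029e-06). All 6 fixed markers of tubule epithelium were detected, led by Krt8 with means of 2123 and 2089 FPKM, and 1 of them, the cadherin Cdh16, was called higher with siSox9 (130 ± 0.424 against 101 ± 2.84 FPKM, SD, n = 3, log2 fold change 0.36, limma adjusted p = 0.0003067). Of the proximal tubule markers, Slc34a1 and Slc5a2, carriers of phosphate and glucose, were at or near 0, and the list summed to 9.75 to 10.1 FPKM with siSox9 and 9.35 to 11.1 FPKM with siNC. The 5 leukocyte and macrophage markers summed to 103 to 114 FPKM with siSox9 and 92.2 to 98.7 FPKM with siNC, fibroblast markers to 5.79 to 7.17 and 7.12 to 8.13 FPKM, and endothelial markers to 2.91 to 3.10 and 3.22 to 4.12 FPKM. Most of the leukocyte and macrophage sum came from Lyz2, lysozyme, which was called higher (means of 83.4 and 71.9 FPKM, log2 fold change 0.21, limma adjusted p = 0.01753), while Csf1r (9.38 and 9.66 FPKM, adjusted p = 0.5775) was not called and Ptprc (0.653 and 0.724 FPKM) was below the filter. What these RNAs contribute to the results on mitochondrial genes was not tested, and in bulk RNA fewer cells of a type and less RNA per cell cannot be told apart.

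Levels per length spanned a wide range along the mitochondrial genome. mt-Co1, the catalytic subunit of complex IV, had the highest mean of the 16 genes, 9920 FPKM over the 6 libraries. mt-Cytb and mt-Nd1 followed with 3068 and 2860 FPKM, then mt-Nd2, mt-Nd5 and mt-Nd4 with 1873, 1748 and 1263 FPKM. The tRNA mt-Tp and the complex I mRNA mt-Nd6 had means of 788 and 698 FPKM, above both rRNAs, mt-Rnr2 (201 FPKM) and mt-Rnr1 (178 FPKM). In recovered reads mt-Tp, which is 67 bases long, was instead below both rRNAs, with 1046 to 1491 per library. mt-Nd6, with 7982 to 10186 reads, stayed above both rRNAs in every library. mt-Rnr1 held 3787 to 4794 reads and mt-Rnr2 7056 to 9167. How RNA was selected for the libraries is not given in the sources used here, and a level of rRNA or tRNA depends on it. With no strand setting given either, reads of the 2 strands cannot be told apart at mt-Tp and mt-Nd6. A gap separated the remaining 6 genes, which ran from mt-Co2 (50.9 FPKM) through mt-Co3 (28.2), mt-Atp6 (12.8), mt-Nd3 (2.39) and mt-Nd4l (2.08) down to mt-Atp8 (0.0664). Neighbours in this order whose values overlapped over the 6 libraries were mt-Cytb and mt-Nd1, mt-Nd2 and mt-Nd5, mt-Tp and mt-Nd6, mt-Rnr2 and mt-Rnr1, mt-Co2 and mt-Co3, and mt-Nd3 and mt-Nd4l. Within a library the first of each pair was the higher in 6 of 6 libraries, apart from mt-Co2 and mt-Co3 (5 of 6) and mt-Nd3 and mt-Nd4l (4 of 6).

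**Figure D1:**
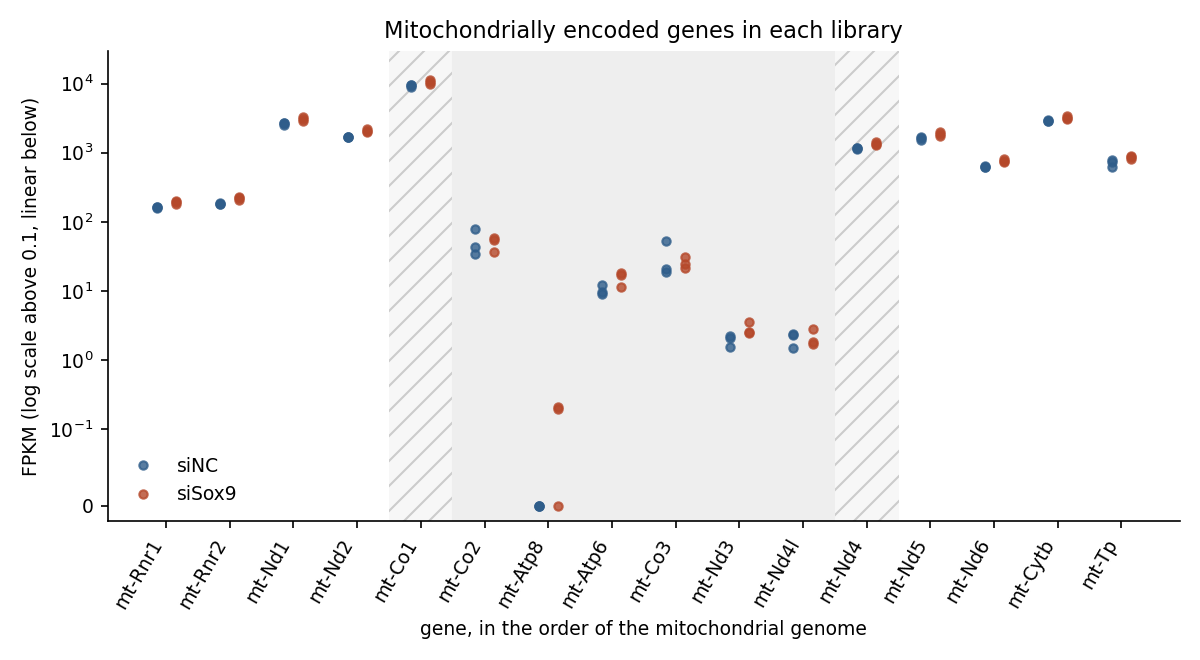
FPKM of the 16 mitochondrially encoded genes in each of the 6 libraries (points, siNC in blue and siSox9 in red), in the order of the mitochondrial genome, on an axis that is logarithmic above 0.1 and linear below. Grey shading marks the 6 genes wholly opposite the chromosome 1 segment, with means between 0.0664 and 50.9 FPKM, and hatching the 2 genes partly opposite it, while the other 8 have means of 178 to 3068 FPKM.

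The 6 low genes were the 6 that lay wholly opposite the chromosome 1 segment. Their means ranged from 0.0664 to 50.9 FPKM, whereas the 2 genes partly opposite it, mt-Co1 (31.3% of its length) and mt-Nd4 (63.6%), had means of 9920 and 1263 FPKM and the 8 genes outside it ranged from 178 to 3068 FPKM. The copies were listed at levels of a similar size to the low genes. Gm28661 ranged from 22.8 to 43.2 FPKM beside 34.2 to 79.0 FPKM for mt-Co2, and Gm28437 from 17.0 to 27.7 FPKM beside 19.0 to 52.3 FPKM for mt-Co3. Gm10925 exceeded its gene in every library, with 37.6 to 55.9 FPKM beside 8.99 to 17.9 FPKM for mt-Atp6. At the bottom, Gm28438 (1.92 to 3.40 FPKM) and Gm10222 (1.10 to 4.55 FPKM) overlapped mt-Nd3 (1.55 to 3.51 FPKM) and mt-Nd4l (1.49 to 2.78 FPKM). By contrast the copies of the genes partly opposite the segment were far below them, Gm29216 at 14.2 to 26.4 FPKM beside mt-Co1 and Gm28439 at 10.8 to 17.8 FPKM beside mt-Nd4. The part that the handling of shared reads played in these levels was not tested.

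**Figure D2:**
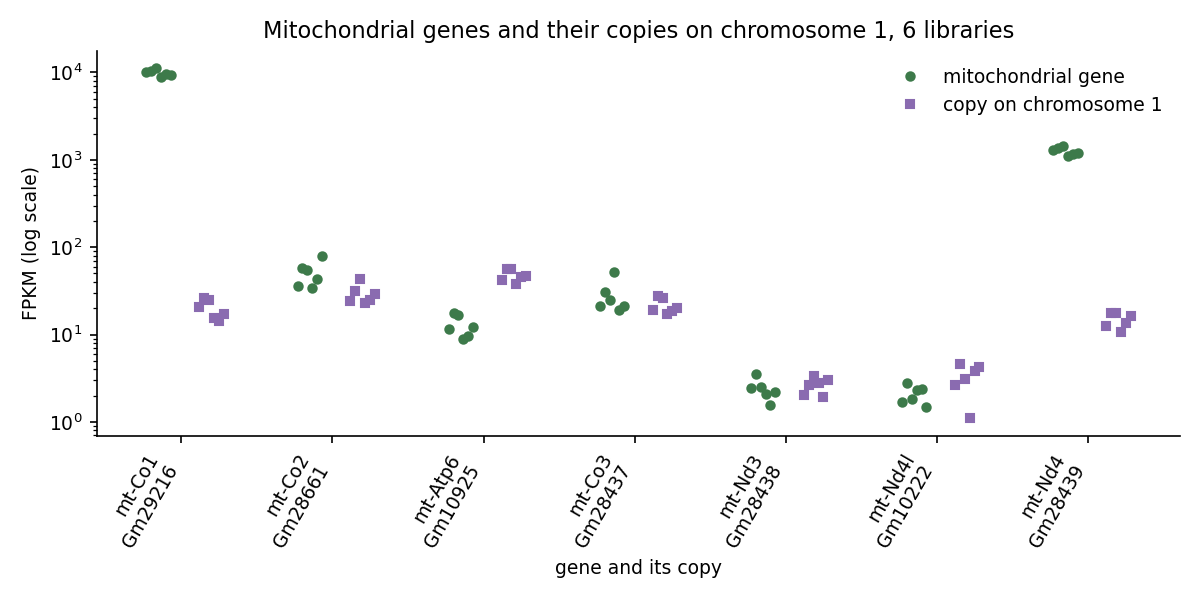
FPKM (log scale) of 7 mitochondrial genes (green circles) and of their copies on chromosome 1 (purple squares), 1 point per library. The copies of mt-Co1 and mt-Nd4 lie far below the genes, Gm10925 lies above mt-Atp6 in every library, and the copies of mt-Co2, mt-Co3, mt-Nd3 and mt-Nd4l overlap their genes.

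Knockdown of Sox9 was accompanied by higher levels of most mitochondrial RNAs, by modest amounts. Both rRNAs, the tRNA and 7 of the 13 mRNAs were higher with siSox9 than with siNC, 10 of the 15 genes tested, 0 were lower, and 5 did not pass the test. At an unadjusted p under 0.05, 12 were higher and 0 lower, and limma voom on recovered reads called 11 higher and 0 lower. Over all 12009 genes tested, 12.8% were called higher and 17.6% lower. The median log2 fold change was 0.23 over the 15 mitochondrial genes and -0.01 over all genes tested. In 11 of the 15 every siSox9 library lay above every siNC library, which held for 20.2% of all genes tested. The test was limma on log2(FPKM + 1), so log2 fold changes are on that scale, with p-values adjusted over all genes tested and a threshold of 0.05, and mt-Atp8 was below the filter of a mean of 1 FPKM. Among the 396 genes outside the mitochondrial genome with a mean of at least 100 FPKM, 93 were higher and 66 lower, with a median of -0.01.

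Among the complex I genes, which encode the membrane arm of NADH dehydrogenase, mt-Nd2 had the largest change of those called. This gene (chrM:3914-4951) measured 1973, 2052 and 2173 FPKM with siSox9 and 1668, 1675 and 1698 FPKM with siNC. The groups did not overlap, and the log2 fold change was 0.30 (SE 0.04, adjusted p = 0.002578). mt-Nd6 (chrM:13552-14070), the only mRNA of the minus strand, was at 725, 758 and 821 FPKM with siSox9 and at 619, 638 and 630 FPKM with siNC. Its siNC libraries lay close together below all siSox9 libraries, and it rose by 0.29 (SE 0.05, adjusted p = 0.005036). mt-Nd4 (chrM:10167-11544) showed 1305, 1350 and 1449 FPKM against 1117, 1167 and 1191 FPKM, a rise of 0.24 (SE 0.05, adjusted p = 0.0102) with no overlap.

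mt-Nd1 and mt-Nd5 rose by the same amount, 0.22 on the log2 scale. For mt-Nd1 (chrM:2751-3707) the siSox9 libraries held 2924, 3058 and 3254 FPKM and the siNC libraries 2513, 2733 and 2675 FPKM (SE 0.05, adjusted p = 0.01944). For mt-Nd5 (chrM:11742-13565) they held 1775, 1867 and 2005 FPKM and 1521, 1638 and 1680 FPKM (SE 0.06, adjusted p = 0.02602). Neither gene had a siNC library within the siSox9 range. The 2 short complex I mRNAs, mt-Nd3 and mt-Nd4l, were not called. Only 13 to 31 reads per library fell on mt-Nd3 (chrM:9459-9806), which stood at 2.46, 3.51 and 2.53 FPKM with siSox9 and at 2.08, 1.55 and 2.197 FPKM with siNC. The groups did not overlap, but its log2 fold change of 0.38 (SE 0.13) had an adjusted p of 0.06304. It passed in 2 of 15 alternative fits, where its adjusted p ranged from 0.03374 to 0.1861. mt-Nd4l (chrM:9877-10173), with 11 to 21 reads per library, stood at 1.70, 2.78 and 1.83 FPKM with siSox9 and 2.31, 2.37 and 1.49 FPKM with siNC. Its groups overlapped and its difference was 0.02 (95% interval -0.36 to 0.40, adjusted p = 0.9381).

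In complex III the mitochondrial genome encodes a single subunit, cytochrome b. mt-Cytb (chrM:14145-15288) measured 3088, 3179 and 3441 FPKM with siSox9 and 2840, 2964 and 2899 FPKM with siNC. Without overlap, its rise of 0.16 (SE 0.05, adjusted p = 0.04845) was the smallest among the genes called and close to the threshold.

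The 3 complex IV mRNAs differed in what could be measured. mt-Co1 (chrM:5328-6872) was at 10064, 10432 and 11176 FPKM with siSox9 and at 8880, 9520 and 9447 FPKM with siNC. All siSox9 libraries lay above all siNC libraries, with a log2 fold change of 0.18 (SE 0.06, adjusted p = 0.04143). mt-Co2 (chrM:7013-7696), which carries the copper site that accepts electrons from cytochrome c, was at 36.3, 57.5 and 55.3 FPKM with siSox9 and 34.2, 43.0 and 79.0 FPKM with siNC. Its siNC replicate 3 was the highest of all 6 libraries and the difference was -0.01 (95% interval -0.73 to 0.72, adjusted p = 0.9913). Without that library it was 0.34 (adjusted p = 0.2943). mt-Co3 (chrM:8607-9390) was at 21.5, 30.5 and 24.8 FPKM with siSox9 and 52.3, 19.0 and 21.04 FPKM with siNC, with siNC replicate 1 far above the rest. The difference was -0.12 (95% interval -0.95 to 0.71, adjusted p = 0.8238), and 0.33 without that library (adjusted p = 0.1097).

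Of the ATP synthase subunits of the proton channel side, mt-Atp6 (chrM:7927-8607) was at 11.5, 17.9 and 16.8 FPKM with siSox9 and 8.99, 9.67 and 12.1 FPKM with siNC. The lowest siSox9 library lay below the highest siNC library, and the log2 fold change of 0.53 (SE 0.17) had an adjusted p of 0.05047, just outside the threshold. It passed in 10 of 16 alternative fits, where its adjusted p ranged from 0.009065 to 0.1553. mt-Atp8 had 0, 1 and 1 reads with siSox9 and 0 reads in every siNC library. A floor of 3 reads corresponds to 0.572 to 0.615 FPKM for this gene, so both groups were under it and no fold was computed. mt-Atp8 shares 43 bases with mt-Atp6, and how reads in the overlap were assigned is not given in the sources used here. In the same way mt-Nd5 and mt-Nd6 share 14 bases on opposite strands, mt-Nd4l and mt-Nd4 share 7 and mt-Atp6 and mt-Co3 share 1.

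Both rRNAs rose. mt-Rnr1 (chrM:70-1024), of the small ribosomal subunit, was at 183, 198 and 195 FPKM with siSox9 and 165, 164 and 160 FPKM with siNC (log2 fold change 0.23, SE 0.04, adjusted p = 0.004126). mt-Rnr2 (chrM:1094-2675), of the large subunit, was at 206, 228 and 225 FPKM with siSox9 and 180, 189 and 181 FPKM with siNC (0.26, SE 0.05, adjusted p = 0.005979). The groups were apart for both genes. The tRNA mt-Tp, counted by 1046 to 1491 reads per library, was at 814, 876 and 890 FPKM with siSox9 and 629, 773 and 747 FPKM with siNC. It rose by 0.27 (SE 0.08, adjusted p = 0.0407), with siNC replicate 1 below the other siNC libraries.

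**Figure D3:**
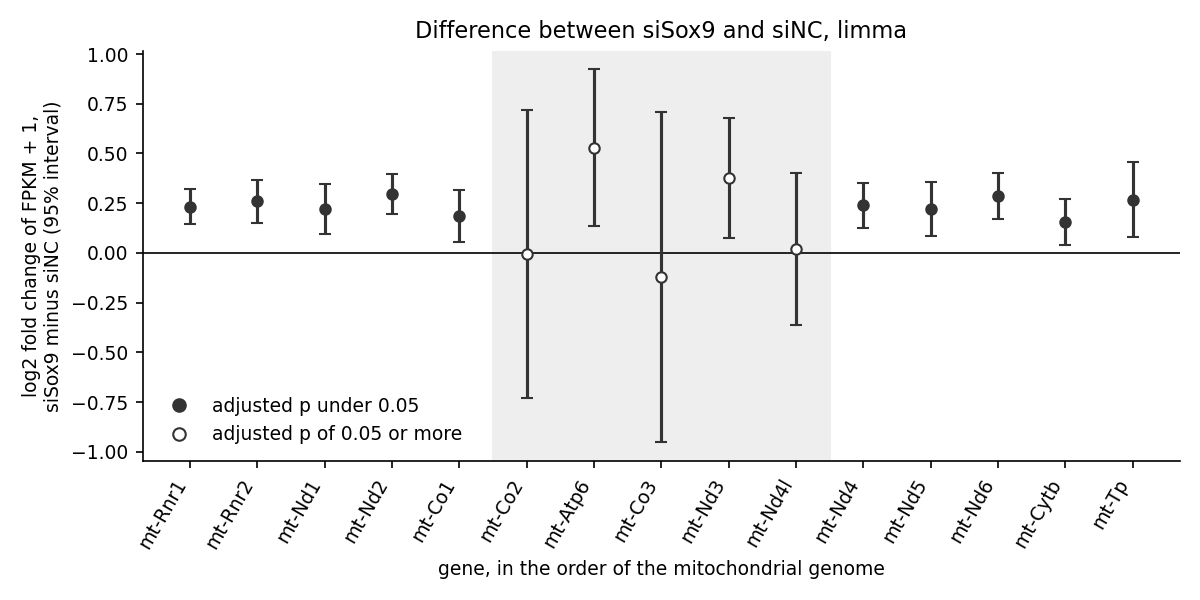
log2 fold change of FPKM + 1 (siSox9 minus siNC, points) with its 95% interval from limma for the 15 genes tested, in the order of the mitochondrial genome. Filled points have an adjusted p under 0.05, and the 5 open points are the genes wholly opposite the chromosome 1 segment (grey), whose intervals are the widest.

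In this fit the calls divided along the same line as the levels. All 8 genes outside the chromosome 1 segment and both genes partly opposite it were called higher, while 0 of the 5 tested genes wholly opposite it were called by limma (2 at an unadjusted p under 0.05, mt-Atp6 and mt-Nd3, and 1 by voom, mt-Atp6). The division did not hold under every scaling. With equal FPKM sums over genes other than mt-, mt-Atp6 (adjusted p = 0.02109) and mt-Nd3 (0.04581) were also called, and after quantile normalization both were called (0.0479 and 0.03374) while mt-Co1, mt-Cytb, mt-Nd1, mt-Nd2 and mt-Nd5 were not. The log2 fold changes ranged from 0.16 to 0.30 for the 8 genes outside and from -0.12 to 0.53 for those wholly opposite. Spread between replicates differed as well. The coefficient of variation within groups was 3.23% to 8.28% for the 10 genes called, where read counting alone gives 0.162% (mt-Co1) to 2.76% (mt-Tp). It was 36.3% for mt-Co2, 44.7% for mt-Co3 and 19.4% for mt-Atp6, where counting alone gives 3.41%, 4.27% and 6.79%, so these genes and the genes called all varied more than counting. For mt-Nd3 and mt-Nd4l it was 19.4% and 26.1%, close to the 22.0% and 25.5% that counting alone gives. Among the 7 copies on chromosome 1, Gm29216, the copy of the end of mt-Co1, was the only one called (log2 fold change 0.59, SE 0.10, adjusted p = 0.004077). The other 6 had log2 fold changes of 0.04 to 0.37 with adjusted p from 0.07332 to 0.8906. On chromosome 2, Gm13340, a copy of the whole of mt-Co1 with 37 mismatches, measured 3.95, 4.08 and 3.71 FPKM with siSox9 and 2.63, 3.54 and 3.02 FPKM with siNC and was called higher (0.28, adjusted p = 0.04122). With no filter on low values that call was lost (adjusted p = 0.1249), whereas Gm29216 was still called (0.02198). The deposited values do not show whether reads counted on either copy came from mt-Co1 or from the copy.

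Several calls depended on single libraries. When each library was left out in turn, mt-Nd2, mt-Nd4, mt-Nd6, mt-Rnr1 and mt-Rnr2 stayed past the threshold in 6 of 6 fits, with a highest adjusted p of 0.03687 for mt-Nd4. mt-Co1 and mt-Cytb passed in 0 of 6, with adjusted p of 0.05352 to 0.1088 and 0.05236 to 0.1303. Of the others, mt-Nd1 failed without siSox9 replicate 2 (0.06437) or siNC replicate 3 (0.05632), and mt-Nd5 without siSox9 replicate 2 (0.07549), siSox9 replicate 3 (0.06478) or siNC replicate 2 (0.05417). mt-Tp failed without siSox9 replicate 1 (0.05768), 2 (0.1161) or 3 (0.1117) or siNC replicate 3 (0.06477). The number called higher was 5 without siSox9 replicate 2 and 6 without siSox9 replicate 3, and 7 or 8 without any other library. The log2 fold change of each of the 10 genes was above 0 in all 6 fits.

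As shares of a library, the 16 genes together accounted for 8.05%, 8.36% and 8.76% of the summed FPKM with siSox9 and 7.20%, 7.17% and 6.98% with siNC. The means were 8.39% ± 0.358 and 7.12% ± 0.121 (SD, n = 3 per group), a ratio of 1.18, and the groups did not overlap. In recovered reads the shares were 2.99%, 3.12% and 3.33% with siSox9 and 2.63%, 2.79% and 2.78% with siNC, a ratio of 1.15. An exact permutation test of 3 against 3 libraries cannot give a p below 0.1, so no test was made of a share. Among protein-coding genes alone, the mitochondrial mRNAs took 8.07% to 8.84% of the summed FPKM with siSox9 and 7.20% to 7.49% with siNC. FPKM sums themselves moved with Gm23935, a row of 57 bases listed as a miRNA, which ranged from 2696 to 3734 FPKM with siSox9 and stood at 748, 11180 and 19473 FPKM with siNC. The share among protein-coding genes, which leaves that row out, kept the groups apart, as did the share of reads.

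Ratios of FPKM within the mitochondrial transcripts of a library do not depend on a scaling factor common to all its genes. The rRNAs amounted to 1.72 to 1.87 FPKM per 100 FPKM of mitochondrial mRNA with siSox9 and 1.67 to 1.79 with siNC, which overlapped. Likewise mt-Tp amounted to 3.64 to 3.84 and 3.27 to 3.79 per 100, again with overlap. mt-Nd6, the mRNA of the minus strand, amounted to 3.42, 3.44 and 3.48 FPKM per 100 FPKM of the plus-strand mRNAs with siSox9 and to 3.32, 3.23 and 3.20 with siNC, so the groups were apart, with a ratio of 1.06. The plus-strand mRNA mt-Nd2 rose by a similar factor, 1.23 for siSox9 over siNC in mean FPKM beside 1.22 for mt-Nd6. The other plus-strand mRNAs called ranged from 1.12 (mt-Cytb) to 1.18 (mt-Nd4). Whether the strand played a part was not tested. mt-Co1 made up 43.3% to 43.5% of the summed FPKM of the 16 genes with siSox9 and 43.9% to 44.2% with siNC. These groups were also apart.

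**Figure D4:**
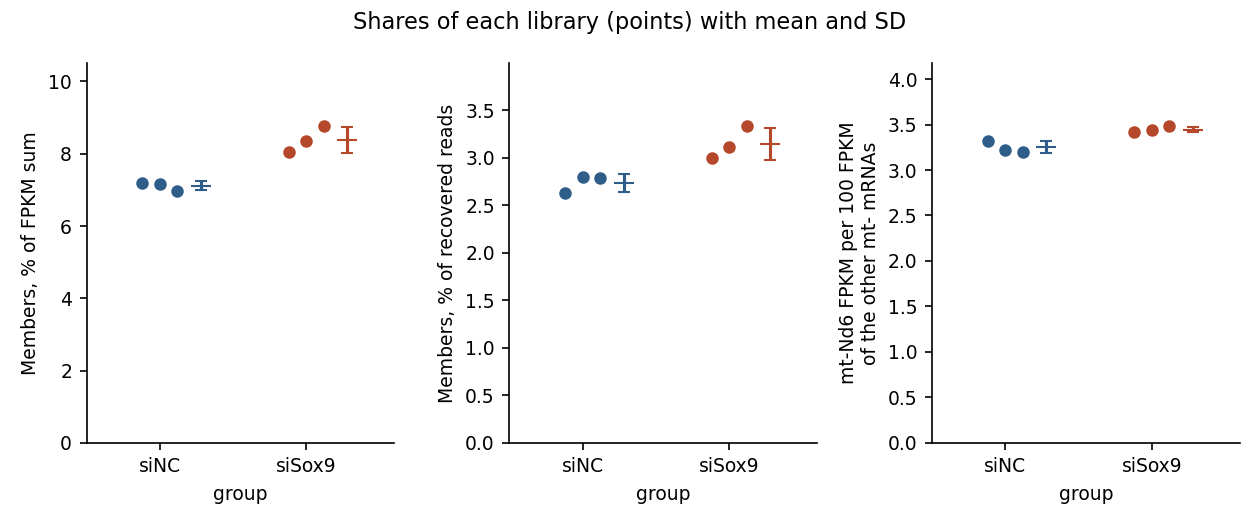
Values per library (points) with mean and SD beside them, for the share of the 16 mitochondrial genes in the summed FPKM (left), their share of recovered reads (middle) and mt-Nd6 per 100 FPKM of the other mitochondrial mRNAs (right), each axis starting at 0. In each panel the 3 siSox9 libraries lie above the 3 siNC libraries, with means of 8.39% and 7.12% in the left panel.

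Nuclear-encoded partners of the mitochondrial genome were called in both directions. Of 77 nuclear-encoded subunits of complexes I to IV and ATP synthase tested, 4 were higher, 4 were lower and 69 did not pass, with a median log2 fold change of 0.01. Across all 9 lists of mitochondrial factors and subunits, 12 of 140 genes were higher and 5 lower, with a median of 0.02, beside 12.8% higher and 17.6% lower over all genes tested. The difference between the lists was not tested, and copies of these genes elsewhere in the genome were not searched.

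Among the 35 nuclear-encoded complex I subunits tested, Ndufv2, an iron-sulfur subunit, was lower and fell by 0.22 (adjusted p = 0.03541). Voom tested 24 of the 35 and called 0 lower. Of the 4 complex II subunits, all of nuclear origin, 0 were called by limma, 0 had an unadjusted p under 0.05 and 0 were called by voom. In complex III the heme subunit cytochrome c1 (Cyc1) fell from 89.7 ± 3.26 to 70.7 ± 2.15 FPKM (SD, n = 3), by 0.34 on the log2 scale (adjusted p = 0.0009311), and Uqcrq fell by 0.29 (adjusted p = 0.009613), while Uqcrc1 rose by 0.13 (adjusted p = 0.02055), out of 9. Complex IV had 2 of 13 higher, Cox8a by 0.22 (adjusted p = 0.001725) and Cox4i1 by 0.21 (adjusted p = 0.03438). ATP synthase had 1 of 16 lower, Atp5g2, a copy of its membrane ring subunit, which fell by 0.13 (adjusted p = 0.02956). In complex III the mitochondrial subunit mt-Cytb was thus called in the direction opposite to Cyc1 and Uqcrq and in the same direction as Uqcrc1. The 9 nuclear-encoded subunits had a median log2 fold change of 0.09, and 6 were not called. Voom tested 8 of them and called 3 higher and 1 lower. With any 1 library left out, mt-Cytb was not called.

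Genes that transcribe and maintain mitochondrial DNA were called higher by limma in 2 of 20 cases and lower in 0. Over all genes tested, 12.8% were called higher and 17.6% lower. The 2 called were Top1mt, the mitochondrial topoisomerase (log2 fold change 0.35, limma adjusted p = 0.03068), and Tk2 (0.18, adjusted p = 0.03243). Tk2 is a thymidine kinase that supplies nucleotides. Voom, which tested 16 of these genes, called 1 higher and 1 lower. Polrmt, the mitochondrial RNA polymerase, was at 8.33 ± 0.159 FPKM with siSox9 and 8.66 ± 0.267 FPKM with siNC (-0.05, adjusted p = 0.3462). Tfam, which packages mitochondrial DNA and starts its transcription, was at 5.95 ± 0.0692 and 6.24 ± 0.216 FPKM (-0.06, adjusted p = 0.2873). Every siSox9 library lay below every siNC library, but the gene was not called. Such separation was common, since the groups overlapped in only 6446 of the 12009 genes tested.

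RNA processing and stability genes were higher in 3 of 21 cases and lower in 0, and by voom higher in 4 and lower in 0 of 20. By limma, 12.8% of all genes tested were called higher and 17.6% lower. Trnt1, which adds the CCA end to tRNAs, rose from 19.1 ± 0.831 to 26.8 ± 1.63 FPKM (0.47, adjusted p = 0.0008581), Elac2, which cuts the 3′ ends of mitochondrial tRNAs, rose by 0.21 (adjusted p = 0.004793) and 1110008L16Rik by 0.16 (adjusted p = 0.0269). Lrpprc, which stabilises mitochondrial mRNAs, was at 9.82 ± 0.138 and 9.61 ± 0.460 FPKM (0.03, adjusted p = 0.6145). Among 16 genes that modify mitochondrial RNA, 3 were higher, the tRNA-modifying enzymes Gtpbp3 (0.22, adjusted p = 0.00472), Trit1 (0.20, adjusted p = 0.03507) and Nsun3 (0.16, adjusted p = 0.03381). Of 6 regulators of mitochondrial biogenesis tested, Yy1, a transcription factor with many targets, fell by 0.18 (adjusted p = 0.04858) and the other 5 did not pass. Ppargc1a, a coactivator that drives mitochondrial biogenesis, was at 0.127 to 0.159 FPKM with siSox9 and 0.171 to 0.330 FPKM with siNC, below the filter, and was not tested.

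**Figure D5:**
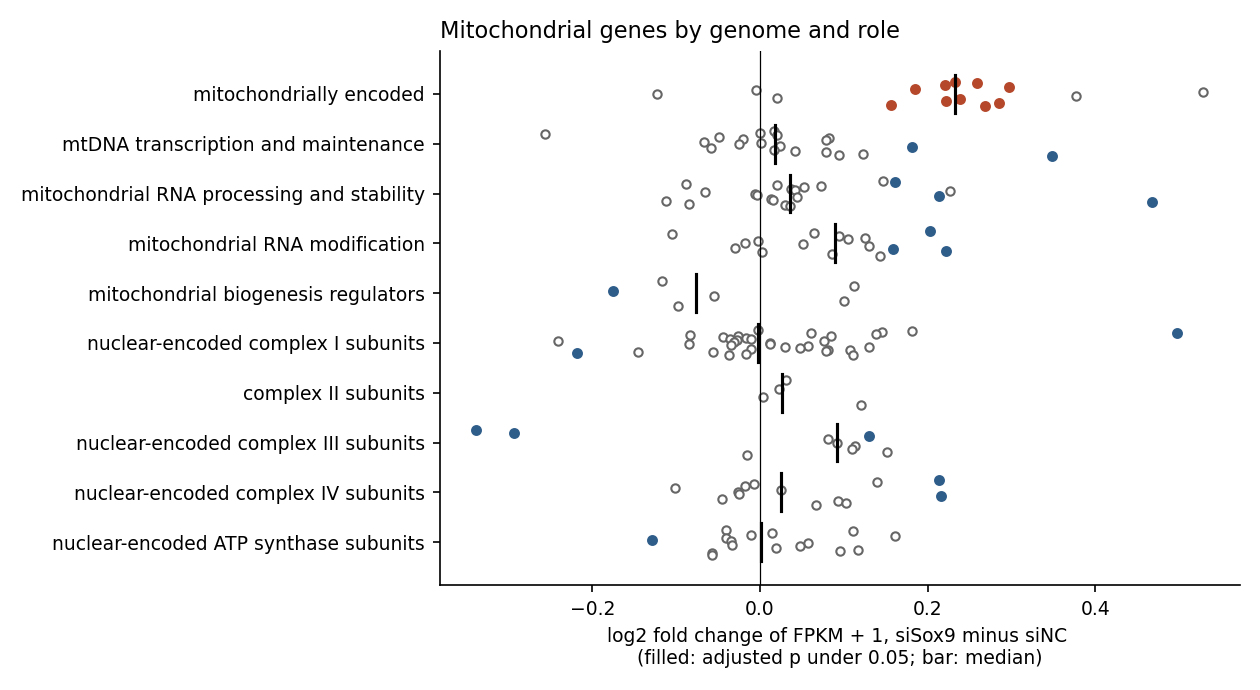
log2 fold change of FPKM + 1 (siSox9 minus siNC) for each gene tested (points, filled where the adjusted p was under 0.05), by genome and role, with the median of each group as a black bar. The mitochondrially encoded genes have a median of 0.23 and 10 of 15 filled, and the nuclear-encoded lists have medians between -0.08 and 0.09.

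Nuclear-retained and non-polyadenylated RNAs from fixed lists were set beside the mitochondrial values. Malat1, retained in the nucleus, had means of 38.6 and 38.8 FPKM (-0.01, adjusted p = 0.9363), whereas Neat1, also retained in the nucleus, rose by 0.65 (adjusted p = 0.0002154). The non-polyadenylated RNAs Rn7sk and Rpph1 had differences of -0.26 and -0.42 (adjusted p = 0.5569 and 0.3582) at levels of a few FPKM. Their part in the result on mitochondrial genes was not tested.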

How the data were processed

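RNA was sequenced from 6 libraries of TECs after H/R, 3 with siSox9 and 3 with siNC, grouped by their titles. FPKM was the unit in which the authors deposited the table, with no further scaling between libraries. The submitters' processing notes name HISAT2 2.1.0, Bowtie2 2.2.3, TopHat2 and the build mm9, with no role or order, whereas the positions in the table are those of GRCm38 and GENCODE M21. The counter, strand setting and read length are not given in the sources used here. Columns named for siNC were taken as siNC, and those named for a different siRNA as siSox9, the only other siRNA in the labels. Columns of per-sample values left out: 0.

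The siSox9 and siNC libraries were compared by limma (version 3.58.1, R 4.3.3; lmFit and eBayes with trend), taking log2(FPKM + 1) of every gene that averaged 1 FPKM or more, with Benjamini-Hochberg adjustment over all genes tested, a threshold of 0.05 and no replicate block. Whole reads were recovered from FPKM with M21 exon lengths, within 0.02 reads for 16 of 16 mitochondrial genes, and from 93.3% to 93.4% of values per library were whole. Floors and counting errors cover counting error only. Nuclear copies were found with blastn 2.17.0 (at least 100 bases and 85% identity) among M21 transcripts, from which all sequences were read. The fit and the read recovery were tested on simulated data. There the fit called 3 of 50 genes with a true fold of 1.2 and 37 of 50 with a fold of 1.5. It called 9 of 10581 genes with no true difference. Most simulated differences of 1.2-fold were thus missed, so a gene not called may still differ by that much.

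Named genes were every mt- mRNA and rRNA, mt- tRNAs with a mean of at least 1 FPKM, Sox9, up to 4 genes called with the largest change in each nuclear list, and Polrmt, Tfam, Lrpprc and Ppargc1a. A gene that this rule covers is not reported here. The nuclear copies, Gm23935, the markers named and Neat1, Malat1, Rn7sk and Rpph1 were named after their values were seen or from a fixed list. Members and lists were chosen with earlier results of these data known. Alternatives were another pseudocount (0.1), no filter or a minimum of 5 FPKM, 4 other scalings, a replicate block, leaving out each library, and limma voom on recovered reads, to which a version with library totals without mt- genes was added after seeing the data.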

Additional observations from a re-analysis of the deposited data

How the results depend on the processing

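Of the 10 mitochondrial genes called higher, mt-Nd6, mt-Rnr1 and mt-Rnr2 passed in all 16 alternatives, none of the 10 changed sign, and no mitochondrial gene was called lower in any. The number called higher was 3 of 16 tested with no filter on low values, 7 after quantile normalization and 9 to 12 under the other settings that kept all libraries. Leaving out 1 library gave 5 to 8. Quantile normalization moved mt-Co1 to 0.81 (adjusted p = 0.08522) in a ranking where Gm23935 outranks it in siNC replicates 2 and 3. The same-numbered libraries did not deviate together (correlations 0.06, -0.05 and 0.01), so the replicate block pairs samples by number only. It gave 9 genes higher, with mt-Co1 (adjusted p = 0.05024) and mt-Cytb (0.06582) lost and mt-Atp6 (0.01762) gained. Calls over all genes were 1532 higher and 2118 lower, 1489 and 1223 when sums over genes other than mt- were equalized, and 1959 and 1765 after median-centring. Their total was 2431 to 3653 when 1 library was left out. In the nuclear-encoded lists, genes called higher numbered 12, but 6 with no filter, 20 with equal sums over genes other than mt-, and 6 to 9 when 1 library was left out. Those called lower numbered 5, but 2 with no filter, with equal sums over genes other than mt- or after median-centring, 3 as TPM or by voom with totals without mt- genes, and 2 to 10 when 1 library was left out. Differences near 0 changed sign. mt-Co2 was 0.024 as TPM, 0.021 median-centred and 0.043 with equal sums over genes other than mt-, and with 1 library left out it ranged from -0.26 to 0.34, above 0 without siSox9 replicate 1 or siNC replicate 3. With 1 library left out mt-Nd4l ranged from -0.13 to 0.11, below 0 without siSox9 replicate 2 or siNC replicate 3, and mt-Co3 from -0.38 to 0.33, above 0 without siNC replicate 1. As a ratio of medians, rRNA to mRNA was 0.975 times that of siNC, against 1.03 as a ratio of sums. The cause of these changes was not tested. Counting limits mt-Nd3, mt-Nd4l and mt-Atp8 most, with at most 31 reads per library.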
